A study of Homo sapiens and Mus musculus with 15 samples.

Results

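RPMI-8226, called 8226 here, is a human line from a plasma cell myeloma, a cancer of antibody-secreting cells. The set described here holds the genes whose RNA was nearly gone from carfilzomib-resistant 8226 (CR) but not from bortezomib-resistant 8226 (BR), each set against the naive line. Members were chosen by their mean levels in the 3 groups: they are autosomal genes that averaged at least 5 CPM, the counts of a gene scaled to a fixed total of gene reads, in naive 8226, less than 1/16 of that level in CR and more than 1/4 of it in BR. Of the 9377 autosomal genes at 5 CPM or more in naive cells, 213 (2.27%) fell below 1/16 in CR, and 33 of these (0.352%) also met the limit in BR. These 33 were members out of 23346 genes in the human tables, and all 33 are protein-coding in RefSeq and passed the filter on low counts. A further 6 genes met the limits on the sex chromosomes and were left out by the autosomal rule.

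The CR group was 8226 raised over months in rising carfilzomib and kept in 10 nM of it, and the BR group was 8226 raised in the same way in bortezomib and kept in 10 nM. Naive 8226 had met neither drug. Resistant cells spent 5 days without drug before RNA was taken from bulk culture, so fewer cells that express a gene and less RNA per cell cannot be told apart. Each group had 3 libraries, and the labels do not say whether these were separate cultures, so spreads and p-values may be technical. Gene reads per library numbered 41964250 to 58419576 in CR, 31709636 to 34339788 in BR and 39032731 to 46874782 in naive cells, so 3 counts stand for 0.0514 to 0.0715 CPM in a CR library. Intervals from counts cover counting error only. Each resistant line was derived once, so changes that arose while it was grown out and changes tied to the drug cannot be told apart. The mouse myeloma line 5TGM1 (BR kept in 20 nM bortezomib, also 5 days off drug, and naive, 3 libraries each) was not used by the rule and was used for tests. It arose in C57Bl/KaLwRij mice and has no CR group in these data.

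Carfilzomib and bortezomib both block the chymotrypsin-like site of the proteasome, the complex that degrades most tagged proteins in the cell, and myeloma cells depend on it because they fold and discard large amounts of immunoglobulin. Carfilzomib is a peptide epoxyketone that binds for good, and bortezomib is a peptide boronate that can leave again.

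The members are known for different roles. GATM and CKB act in creatine metabolism, ACN9 in assembly of a mitochondrial enzyme, PEG10 and SGCE form an imprinted pair, and KRT80, KRT86, PPL, TUBB3, SEPT11, MYBPC2 and IFT172 belong to the cytoskeleton and its contacts. MYCN, HDAC9, ZNF43, ZNF506, ZNF90 and ZNF141 act in the nucleus. MME, ADPRH, CHI3L1, LRRN2, PTCHD2, PRKD1, DIP2C, HSD3B7, FKBP10, CERCAM, ADAMTSL2, C10orf10 and PRAMEF4 have other roles. The tables' older symbols ACN9, C10orf10, SEPT11 and PTCHD2 correspond to SDHAF3, DEPP1, SEPTIN11 and DISP3 in RefSeq.

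The promoters of 6 members are shown because they span the set: both creatine genes, IFT172 and ACN9, which have a CpG-rich start and were left with 1 and 2 counts in CR, and 2 related zinc finger genes of chromosome 19. Each run is the 300 bases from 250 before to 50 after the transcription start in RefSeq GRCh38.p14, in the direction of transcription, with each CG dinucleotide in capitals. GATM lies at chr15:45378495-45378794 (minus strand), CKB at chr14:103522781-103523080 (minus), ACN9 at chr7:97117448-97117747 (plus), IFT172 at chr2:27489694-27489993 (minus), ZNF43 at chr19:21836133-21836432 (minus) and ZNF90 at chr19:20077750-20078049 (plus).
GATM: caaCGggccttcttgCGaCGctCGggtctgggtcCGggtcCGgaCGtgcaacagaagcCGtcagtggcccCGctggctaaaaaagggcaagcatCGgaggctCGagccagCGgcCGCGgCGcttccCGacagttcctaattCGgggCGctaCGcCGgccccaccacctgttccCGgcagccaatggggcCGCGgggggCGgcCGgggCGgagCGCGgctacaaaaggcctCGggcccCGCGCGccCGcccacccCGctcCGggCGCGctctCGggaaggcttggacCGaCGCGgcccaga
CKB: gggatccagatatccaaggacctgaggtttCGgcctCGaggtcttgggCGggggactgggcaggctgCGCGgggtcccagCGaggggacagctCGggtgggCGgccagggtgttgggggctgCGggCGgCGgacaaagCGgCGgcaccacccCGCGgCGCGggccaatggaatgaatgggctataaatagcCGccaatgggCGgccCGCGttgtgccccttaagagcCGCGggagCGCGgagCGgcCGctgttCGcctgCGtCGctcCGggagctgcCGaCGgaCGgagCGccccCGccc
ACN9: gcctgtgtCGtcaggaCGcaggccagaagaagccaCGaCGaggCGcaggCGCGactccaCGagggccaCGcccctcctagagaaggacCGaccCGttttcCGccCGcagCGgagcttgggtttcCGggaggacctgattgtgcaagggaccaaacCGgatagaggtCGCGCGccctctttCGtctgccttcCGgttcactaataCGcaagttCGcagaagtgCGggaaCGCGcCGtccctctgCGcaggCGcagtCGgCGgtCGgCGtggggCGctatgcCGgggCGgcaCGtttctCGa
IFT172: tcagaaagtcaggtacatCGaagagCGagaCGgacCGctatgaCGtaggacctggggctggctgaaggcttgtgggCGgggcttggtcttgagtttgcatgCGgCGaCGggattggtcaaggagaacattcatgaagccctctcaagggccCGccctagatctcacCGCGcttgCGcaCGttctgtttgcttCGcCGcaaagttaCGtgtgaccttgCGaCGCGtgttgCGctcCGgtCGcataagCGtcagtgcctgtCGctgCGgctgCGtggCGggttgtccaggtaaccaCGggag
ZNF43: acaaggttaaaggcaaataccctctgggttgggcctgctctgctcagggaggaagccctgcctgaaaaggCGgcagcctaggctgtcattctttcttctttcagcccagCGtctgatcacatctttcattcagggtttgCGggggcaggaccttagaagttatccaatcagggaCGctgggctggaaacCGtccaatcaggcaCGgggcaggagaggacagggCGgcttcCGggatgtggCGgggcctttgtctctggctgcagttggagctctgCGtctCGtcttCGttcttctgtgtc
ZNF90: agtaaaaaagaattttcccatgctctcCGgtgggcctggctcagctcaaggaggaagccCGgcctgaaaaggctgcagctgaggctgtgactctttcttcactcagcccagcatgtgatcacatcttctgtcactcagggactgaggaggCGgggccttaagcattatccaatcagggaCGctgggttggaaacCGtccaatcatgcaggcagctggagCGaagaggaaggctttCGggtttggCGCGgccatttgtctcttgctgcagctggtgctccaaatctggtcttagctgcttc
The windows of GATM, ACN9, CKB and IFT172 hold 41, 38, 36 and 29 CG dinucleotides, and those of ZNF43 and ZNF90 hold 12 and 9.

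The values in this and the following paragraphs on human levels chose the members, so they are a description and carry no test. In all 33 members every CR library lay below every BR and every naive library, against 18.8% of the 9377 genes, a share that the rule itself fixes for the members. CR levels were 0% to 6.21% of naive levels, with a median of 1.93%. They were under 1% in 9 members, from 1% to 3% in 11 and above 3% in 13. BR levels were 26.2% to 335% of naive levels, with a median of 72.4%.

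**Figure D1:**
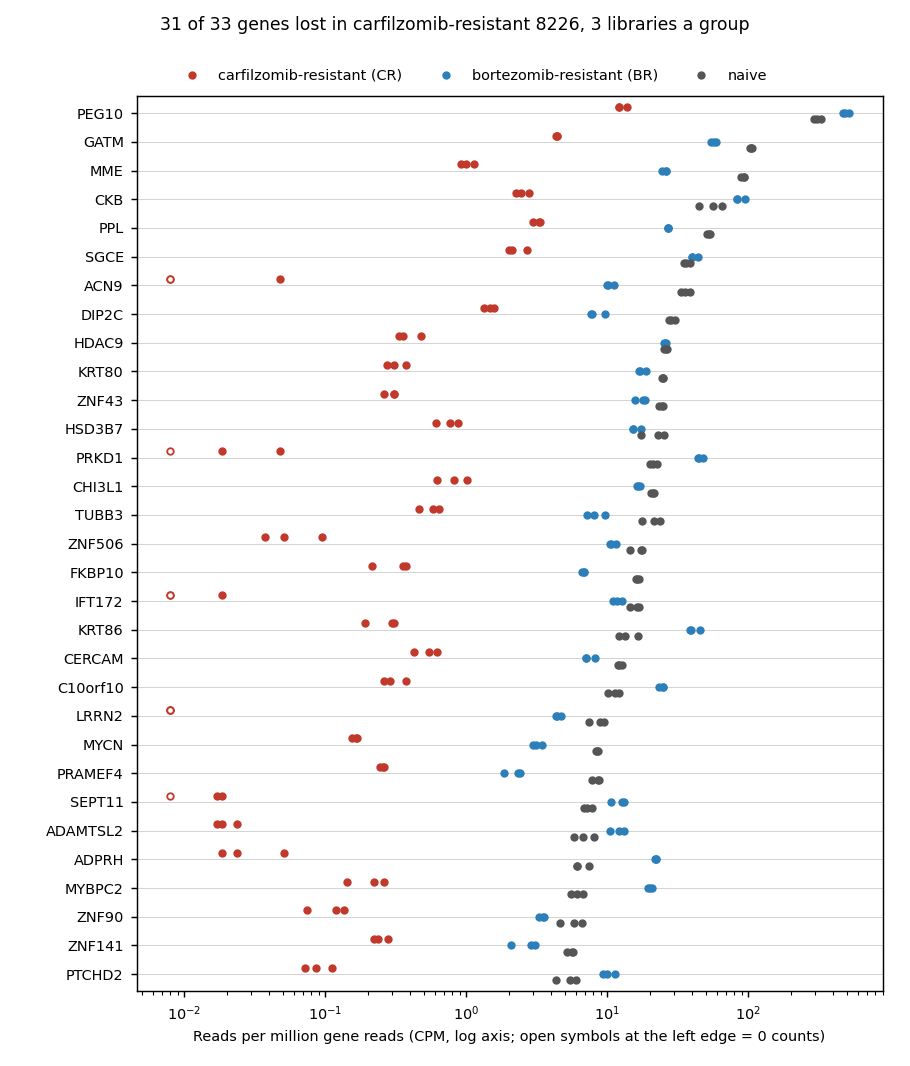
Level of 31 of the 33 genes in CPM (log axis) in 3 CR, 3 BR and 3 naive libraries of 8226, a point per library, ordered by naive level; open points stand for 0 counts. In every row the CR points lie left of the others, from 0 counts in LRRN2 up to 13.9 CPM in PEG10.

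Creatine genes and a mitochondrial assembly factor were among the highest members in naive cells. GATM encodes the enzyme that makes guanidinoacetate, the precursor of creatine. It had 4.44, 4.36 and 4.40 CPM in CR, 58.8, 57.2 and 54.8 CPM in BR, and 104, 106 and 104 CPM in naive cells. CR was 23.8-fold below naive, and BR lay between them without overlap. CKB encodes the cytosolic creatine kinase, which moves phosphate between creatine and ATP. It had 2.43, 2.81 and 2.24 CPM in CR, 82.9, 82.8 and 95.7 CPM in BR, and 56.4, 44.6 and 65.6 CPM in naive cells. CR was thus 22.2-fold below naive, while all BR libraries lay above all naive ones. The other creatine genes that passed the filter were both lower in CR than naive by edgeR's quasi-likelihood test. GAMT, which methylates guanidinoacetate to creatine, averaged 24.6 CPM in CR and 33 CPM in naive cells (log2 fold change -0.49 ± 0.12 SE, adjusted p = 0.00177). SLC6A8, the creatine transporter, averaged 1.32 CPM in CR and 6.66 CPM in naive cells (log2 fold change -2.39, adjusted p = 3.52e-10), and it was as low in BR, at 1.28 CPM.

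ACN9 (SDHAF3) helps insert the iron-sulfur subunit of succinate dehydrogenase, the enzyme shared by the citric acid cycle and the respiratory chain. It had 0, 0.0477 and 0 CPM in CR, 11.1, 10.1 and 9.91 CPM in BR, and 33.5, 35.9 and 39.0 CPM in naive cells. The CR libraries held 2 counts in all, which puts CR 2769-fold below naive with a 95% counting interval of 766 to 22868. BR was also clearly below naive, at 28.7% of it, close to the limit of the rule. The 4 subunits of the enzyme moved little in CR. SDHA and SDHB did not pass the test (log2 fold changes of -0.06 and 0.06; SDHB 0.12 and called with library size alone), and SDHC and SDHD were lower (log2 fold changes of -0.40 and -0.15, edgeR adjusted p = 1.20e-05 and 0.0225). The call of SDHD was lost without CR replicate 1 (adjusted p = 0.132), without CR replicate 3 (0.0645), without naive replicate 2 (0.0795) and with library size alone (0.145). C6orf57, another assembly factor of the enzyme, was higher, at 11.6 CPM in CR against 4.37 CPM in naive cells (log2 fold change 1.35, adjusted p = 2.73e-09).

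PEG10 and SGCE lie side by side on chromosome 7 and are known as imprinted genes, read from the paternal copy and transcribed away from each other. PEG10, a gene of retrotransposon origin best known from placenta, was the highest member in naive cells. It had 13.9, 12.2 and 12.2 CPM in CR, 483, 518 and 474 CPM in BR, and 326, 306 and 293 CPM in naive cells. CR was 24.1-fold below naive, and BR lay above naive in all libraries. SGCE encodes epsilon-sarcoglycan, a membrane protein of the dystrophin-associated complex. It had 2.11, 2.0 and 2.69 CPM in CR, 44.5, 40.0 and 39.7 CPM in BR, and 36.1, 38.5 and 34.9 CPM in naive cells. It lay closest to the CR limit, at 6.21% of naive. The BR libraries were above the naive ones in CPM, but the fitted log2 fold change on TMM-scaled libraries was -0.01, so the order of BR and naive depends on the scaling.

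Beside those 2 genes the low CR level did not run on into CASD1. CASD1, the next gene beyond SGCE, averaged 38.8 CPM in CR and 40.6 CPM in naive cells (log2 fold change -0.13, edgeR adjusted p = 0.0482, a call lost with library size alone, with no filter and with the replicate block, at 0.284, 0.118 and 0.0631, and without any one of the CR libraries, naive replicates 1 and 2 or BR replicates 1 and 2, with 0.0395 to 0.159 over the fits that left out a library). PPP1R9A, the next gene beyond PEG10, averaged 0.363 CPM in CR, 0.0098 CPM in BR and 0.0158 CPM in naive cells, too little in naive cells to show a loss. ACN9 lies 6 tested genes further along. Of the 10 other imprinted genes tested, 5 were higher and 3 lower in CR than naive, with a median log2 fold change of 0.21. Over all 13910 tested genes, 35.0% were higher and 36.7% lower, shares against which the other list counts of CR against naive are to be read. CDKN1C, an inhibitor of the cell cycle, was lower at 5.06 CPM in CR against 33.5 CPM in naive cells, MEST was higher at 110 CPM against 57 CPM, and ZDBF2 was higher at 23.6 CPM against 2.62 CPM. Their log2 fold changes were -2.79, 0.89 and 3.11 (edgeR adjusted p = 1.51e-12, 2.54e-08 and 6.12e-14).

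Cytoskeletal members included 2 keratins of chromosome 12 with 1 tested gene between them. Keratins build the intermediate filaments of epithelial cells and are not typical of plasma cells. KRT80 had 0.374, 0.310 and 0.274 CPM in CR, 17.2, 16.8 and 18.9 CPM in BR, and 24.8, 24.6 and 25 CPM in naive cells. KRT86, a hair keratin, had 0.299, 0.191 and 0.308 CPM in CR, 39.5, 38.7 and 45.5 CPM in BR, and 13.4, 12.2 and 16.5 CPM in naive cells. CR was 77.6-fold and 52.8-fold below naive in these genes, whereas BR was below naive in KRT80 and 2.94-fold above naive in KRT86. KRT7, the gene between them, missed the set because its CR level was too high. It averaged 3.57 CPM in CR, 45.5 CPM in BR and 43.5 CPM in naive cells, with a log2 fold change of -3.68 for CR against naive (edgeR adjusted p = 1.22e-13) and of -0.12, not called, for BR against naive (called lower without BR replicate 3, at -0.22 with adjusted p = 0.0376). KRT81, next to KRT86, missed it because its naive level was just under 5 CPM. It averaged 0.0676 CPM in CR, 38.0 CPM in BR and 4.84 CPM in naive cells, with log2 fold changes of -6.22 for CR and 2.79 for BR against naive (adjusted p = 2.23e-12 and 6.25e-13). KRT83, the next gene, had no count in CR, 0.677 CPM in BR and 4.41 CPM in naive cells. KRT81, KRT83 and KRT86 are close relatives, so reads that fit several of them were not counted and their levels are uncertain. C12orf44, on the other side of KRT80, was not called, at 37.2 CPM in CR and 32.8 CPM in naive cells.

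Over the family, 10 of 15 other keratins tested were lower and 4 higher in CR than naive, with a median log2 fold change of -4.73 beside -0.004 over all tested genes. The count of higher keratins was 2 with DESeq2 and 2 without CR replicate 1. In BR 8 of the 15 were lower and 6 higher than naive, beside 41.6% and 38.2% of all tested genes, with a median of -2.88. The median log2 fold change of CR against BR over these keratins was -0.14. KRT15 averaged 5.44 CPM in CR and 138 CPM in naive cells, and it was likewise low in BR, at 3.38 CPM. KRT18, the partner filament of simple epithelia, was slightly higher, at 166 CPM in CR and 126 CPM in naive cells (log2 fold change 0.33, adjusted p = 9.82e-05). Epithelial markers overall were lower in 10 of 12 tested genes and higher in 2 (1 with DESeq2, with counts of both strands, and without CR replicate 1). Their summed level was 297 to 308 CPM in CR, 309 to 332 CPM in BR and 437 to 448 CPM in naive cells. EPCAM, a defining marker, was at 92.3 CPM in CR, 49.4 CPM in BR and 157 CPM in naive cells, and KRT19, another, was at or near 0. The part of epithelial genes as a whole in the keratin values was not tested.

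**Figure D2:**
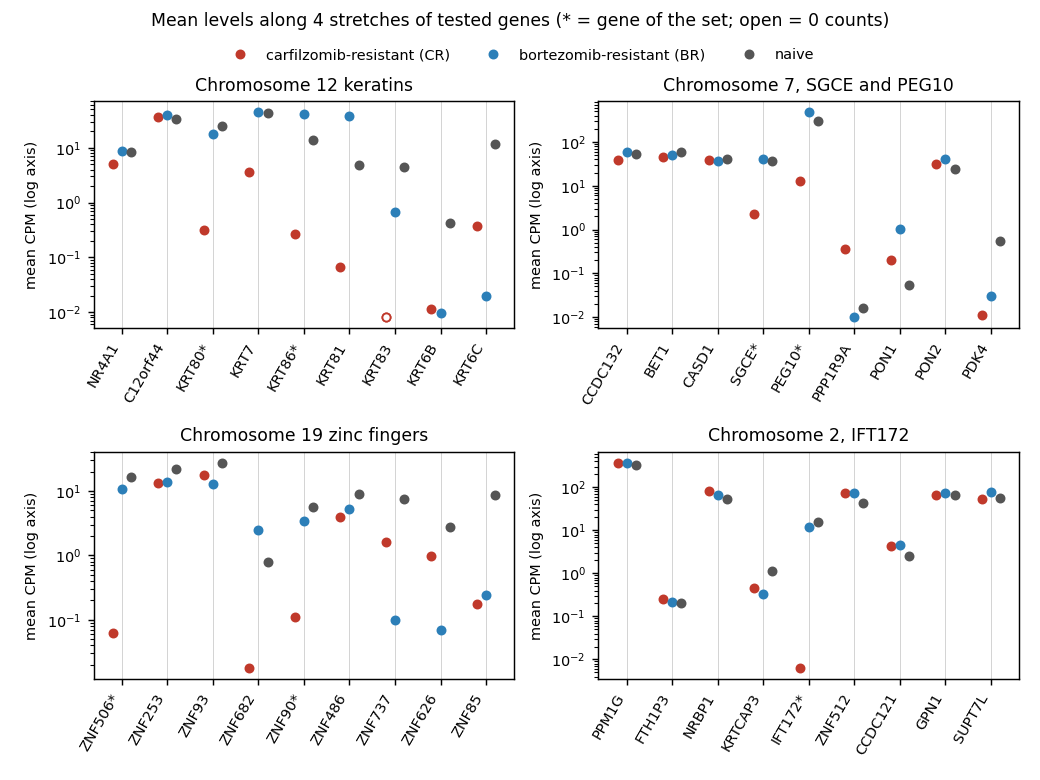
Mean CPM (log axis, 3 libraries each) of CR, BR and naive 8226 for 9 tested genes in gene order around KRT86, PEG10, ZNF90 and IFT172; stars mark members and open points 0 counts. CR lies far below both other groups at the starred genes, at KRT7, KRT81 and KRT83 and at ZNF682, while CASD1, beside SGCE, and ZNF512, beside IFT172, kept their RNA in CR.

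PPL encodes periplakin, which links keratin filaments to desmosomes. It had 3.31, 2.98 and 3.34 CPM in CR, 27.1, 27.0 and 27.1 CPM in BR, and 54.1, 51.1 and 53.2 CPM in naive cells. CR was 16.5-fold below naive, just past the limit, and BR was at 51.3% of naive. TUBB3, the beta tubulin typical of neurons, averaged 0.562 ± 0.092 CPM in CR, 8.34 ± 1.21 CPM in BR and 21.0 ± 3.14 CPM in naive cells (SD, n = 3 each). The main beta tubulin gene TUBB, at 2054 CPM in CR and 1849 CPM in naive cells, was not called, but was called higher with library size alone (log2 fold change 0.15, edgeR adjusted p = 0.0127).

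SEPT11 encodes a septin, a GTP-binding protein that polymerises at membranes. It had 0.0187, 0 and 0.0171 CPM in CR, 12.8, 13.1 and 10.6 CPM in BR, and 7.79, 6.83 and 7.17 CPM in naive cells. The 2 CR counts put CR 560-fold below naive with a 95% counting interval of 155 to 4633, while every BR library was above every naive one. Of 10 other septins tested, 4 were higher and 4 lower in CR than naive, with SEPT2 lower (254 CPM in CR, 418 CPM in naive cells) and SEPT8 higher (31.7 CPM in CR, 17.7 CPM in naive cells). Of 9 tested genes outside the set that belong, like SGCE, to the dystrophin-associated complex, 3 were higher in CR than naive, among them UTRN (46.2 CPM in CR, 11 CPM in naive cells), and 3 were lower, with a median log2 fold change of 0.10. MYBPC2, a myosin-binding protein of fast muscle, was 29.2-fold below naive in CR and 3.30-fold above it in BR.

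IFT172 encodes a large subunit of the intraflagellar transport machinery that builds cilia. It had 0.0187, 0 and 0 CPM in CR, 11.7, 12.7 and 11 CPM in BR, and 16.8, 16.2 and 14.4 CPM in naive cells. A single CR count remained among 3 libraries, which puts CR 2445-fold below naive with a 95% counting interval of 438 to 96609. On the opposite strand the gene had 26 counts in CR, 8 in BR and 17 in naive cells. Of the 22 other genes of the machinery tested, 12 were lower and 6 higher in CR than naive, beside 36.7% and 35.0% of all tested genes, with a median log2 fold change of -0.21. The lowest, TTC26, averaged 3.38 CPM in CR and 11.8 CPM in naive cells (log2 fold change -1.86, adjusted p = 2.47e-10), and IFT88 was higher, at 6.90 CPM in CR against 4.09 CPM in naive cells (log2 fold change 0.69, adjusted p = 6.75e-06). In BR 12 of the 22 were higher and 6 lower than naive, beside 38.2% and 41.6% of all tested genes. WDR35, chosen after its values were seen, averaged 15.7 CPM in CR, 0.636 CPM in BR and 26.0 CPM in naive cells.

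Among nuclear members, HDAC9 encodes a class IIa histone deacetylase that binds MEF2 factors. It had 0.337, 0.477 and 0.359 CPM in CR, 25.1, 26.0 and 25.9 CPM in BR, and 26.0, 26.8 and 25.5 CPM in naive cells. CR was 66.7-fold below naive, and BR overlapped naive. Its relatives kept much of their level: HDAC4 averaged 15.3 CPM in CR and 21.8 CPM in naive cells (log2 fold change -0.57, adjusted p = 0.000244), and HDAC7 41.0 CPM in CR and 41.8 CPM in naive cells (not called, but lower by the test without naive replicate 2, with a log2 fold change of -0.14). MEF2C averaged 59.1 CPM in CR and 112 CPM in naive cells (log2 fold change -0.98, adjusted p = 6.29e-11). In the list of class II deacetylases and MEF2 genes, 2 of 8 others were higher and 3 lower, with a median log2 fold change of -0.08, and 5 were lower without naive replicate 2.

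MYCN, a MYC relative best known from neuroblastoma, averaged 0.163 ± 0.00788 CPM in CR, 3.19 ± 0.244 CPM in BR and 8.49 ± 0.127 CPM in naive cells (SD, n = 3 each). MYC itself was called higher in CR, at 1063 CPM against 862 CPM in naive cells (log2 fold change 0.24, adjusted p = 0.000346). Of 9 other genes of the MYC network tested, 6 were higher in CR than naive and 3 were not called, beside 35.0% higher and 36.7% lower of all tested genes, with a median log2 fold change of 0.24.

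The 4 zinc finger members are KRAB zinc finger genes, a class known to repress transposons and other genes. ZNF43 had 0.262, 0.310 and 0.308 CPM in CR, 18.6, 18 and 15.9 CPM in BR, and 24.7, 23.2 and 24.5 CPM in naive cells. CR was 82.3-fold below naive, and BR lay at 72.4% of it. ZNF506 averaged 0.0614 CPM in CR (9 counts), 10.9 CPM in BR and 16.6 CPM in naive cells, and ZNF90 averaged 0.110 CPM in CR, 3.45 CPM in BR and 5.70 CPM in naive cells. These 3 lie in the same stretch of chromosome 19, with 3 tested genes between ZNF506 and ZNF90 and 12 between ZNF90 and ZNF43. ZNF141, on chromosome 4, averaged 0.247 CPM in CR, 2.68 CPM in BR and 5.51 CPM in naive cells.

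The loss was uneven within the chromosome 19 stretch. ZNF253, next to ZNF506, averaged 13.4 CPM in CR and 22.3 CPM in naive cells (log2 fold change -0.79, adjusted p = 2.40e-07), whereas ZNF682, beside ZNF90, averaged 0.0177 CPM in CR, 2.50 CPM in BR and 0.796 CPM in naive cells. ZNF208, beside ZNF43, averaged 0.185 CPM in CR and 3.98 CPM in naive cells, and it was lower still in BR, at 0.0593 CPM (log2 fold change of CR against BR 1.63, edgeR adjusted p = 0.0201). Of 222 other zinc finger genes of chromosome 19 that were tested, 119 were lower and 45 higher in CR than naive, beside 36.7% and 35.0% of all tested genes, with a median log2 fold change of -0.30. In BR 97 were lower and 72 higher than naive, beside 41.6% and 38.2%, with a median of -0.10. Zinc finger genes share sequence, so reads that fit several were not counted.

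Surface and secreted members included MME, an enzyme of known use in haematology. MME encodes neprilysin, the common acute lymphoblastic leukaemia antigen CD10, a peptidase that marks B cell precursors and germinal centre cells. It had 0.917, 1.00 and 1.13 CPM in CR, 26.3, 26.0 and 24.4 CPM in BR, and 93.5, 94.1 and 89.6 CPM in naive cells. CR was 91-fold below naive. BR was at 27.7% of naive, so near the limit that MME left the set when CPM were scaled by TMM. CHI3L1, a secreted chitin-binding glycoprotein, had 1.01, 0.620 and 0.822 CPM in CR, 16.3, 16.6 and 17.2 CPM in BR, and 21.2, 21.5 and 20.6 CPM in naive cells. Its neighbour MYBPH averaged 0.0574 CPM in CR, 16 CPM in BR and 2.65 CPM in naive cells, with log2 fold changes of -5.50 for CR and 2.40 for BR against naive (edgeR adjusted p = 8.47e-12 and 3.17e-12).

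LRRN2, a leucine-rich repeat membrane protein, was the only member with no count in CR. It had 4.69, 4.42 and 4.35 CPM in BR and 9.47, 7.47 and 8.94 CPM in naive cells. Against 3 counts over the 3 CR libraries, the limit that a count of 0 allows, CR was at least 443-fold lower than naive. PTCHD2, a multipass membrane protein related to the Hedgehog component Dispatched, had 0.112, 0.0715 and 0.0856 CPM in CR, 9.32, 9.93 and 11.4 CPM in BR, and 5.48, 4.37 and 6.02 CPM in naive cells. CR was 58.9-fold below naive, and all BR libraries lay above all naive ones.

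Signalling and metabolic members showed some of the widest gaps between the resistant lines. PRKD1 encodes protein kinase D1, a diacylglycerol-activated kinase at the Golgi and plasma membrane. Its CR libraries held 0.0187, 0.0477 and 0 CPM, 3 counts in all. BR had 44.2, 48.2 and 45.2 CPM, and naive cells had 21.2, 22.5 and 20.3 CPM. CR was 1095-fold below naive (95% counting interval 374 to 5314), and BR was 2.15-fold above it. The related PRKD2 was at 50.8 CPM in CR and 45.3 CPM in naive cells, which passed the test only with library size alone (log2 fold change 0.17), and PRKD3 at 160 CPM in CR, 472 CPM in BR and 252 CPM in naive cells was lower in CR (log2 fold change -0.72, adjusted p = 5.02e-09). G2E3, the next gene to PRKD1, showed the reverse contrast between the lines, at 46.9 CPM in CR, 0.0098 CPM in BR and 42.5 CPM in naive cells.

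ADPRH, which removes ADP-ribose from arginine, had 0.0187, 0.0238 and 0.0514 CPM in CR, 22, 21.9 and 22.3 CPM in BR, and 6.17, 7.47 and 6.15 CPM in naive cells. BR was 3.35-fold above naive, the highest ratio in the set, and CR was 211-fold below naive. DIP2C, of the disco-interacting protein family, had 1.48, 1.33 and 1.57 CPM in CR, 7.83, 7.66 and 9.67 CPM in BR, and 30.4, 28.2 and 27.3 CPM in naive cells. CR was 19.6-fold below naive, and BR also lay far below naive. C10orf10 (DEPP1), a target of FOXO factors, averaged 0.309 CPM in CR, 24.4 CPM in BR and 11.3 CPM in naive cells. HSD3B7, an enzyme of bile acid synthesis, averaged 0.755 CPM in CR, 16 CPM in BR and 21.9 CPM in naive cells.

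Matrix-related members were FKBP10, CERCAM and ADAMTSL2. FKBP10, a prolyl isomerase that helps fold procollagen in the endoplasmic reticulum, averaged 0.316 ± 0.0883 CPM in CR, 6.78 ± 0.0950 CPM in BR and 16.3 ± 0.323 CPM in naive cells (SD, n = 3 each). CERCAM averaged 0.531 CPM in CR, 7.46 CPM in BR and 12.3 CPM in naive cells. ADAMTSL2, a secreted protein of microfibrils, had 3 counts in CR, 350-fold below naive (95% counting interval 119 to 1702), and was 1.74-fold above naive in BR. Of 14 other genes of collagen modification tested, 7 were lower and 5 higher in CR than naive, with a median log2 fold change of -0.19. LEPREL4, next to FKBP10 and known as a partner of prolyl 3-hydroxylases, averaged 13.9 CPM in CR and 33.2 CPM in naive cells (log2 fold change -1.32, adjusted p = 3.40e-09). PLOD2, which hydroxylates collagen lysines, averaged 0.0119 CPM in CR, 0 CPM in BR and 15.1 CPM in naive cells, a loss in both resistant lines. PRAMEF4, of a family of near-identical genes on chromosome 1, averaged 0.254 CPM in CR, 2.20 CPM in BR and 8.39 CPM in naive cells. Its level is uncertain because reads shared with its copies were not counted. Of the 5 other family genes tested, 4 were lower in CR than naive, with a median log2 fold change of -6.78. All 5 were lower in BR than naive, with a median of -5.52. PRAMEF2 and PRAMEF6, among these genes, were near 0 in both resistant lines. PRAMEF6, whose log2 fold change is the CR median, averaged 0.00624 CPM in CR, 0.0098 CPM in BR and 0.999 CPM in naive cells. Both passed the filter on low counts through the naive libraries, so their lower calls were set by the filter and carry no test.

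The levels of the 33 genes in BR lay on both sides of naive, more often below than above. All BR libraries lay above all naive libraries in 11 members, beside 49.0% of the 9377 genes, and below them in 20 members, beside 32.5%. BR and naive overlapped in 2 members, among them HDAC9. On TMM-scaled libraries the counts were 10 above and 22 below with 1 overlap, beside 37.1% above and 42.4% below of the 9377 genes. Scaling by library size alone, as in the CPM of the rule, moved the median log2 fold change of BR against naive over all tested genes to 0.157, from -0.026 with TMM, and the share of calls that were higher to 58.7%, from 47.9%. BR was at least 2-fold above naive in ADPRH, MYBPC2, KRT86, C10orf10 and PRKD1. It was more than 2-fold below naive in 9 members, among them PRAMEF4, MME, ACN9 and DIP2C, so the label of a loss confined to CR holds for these only in the sense of the 1/4 limit.

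The values next to each limit show how the edges of the set fell. At the naive limit, PTCHD2, ZNF141 and ZNF90 were inside at 5.29, 5.51 and 5.70 CPM in naive cells, and ZNF570, KRT81 and IFI44L outside at 4.90, 4.84 and 4.71 CPM. At the CR limit, SGCE and PPL were inside at 6.21% and 6.08% of naive, and NFATC1, ZNF709 and KCNH2 outside at 6.26%, 6.64% and 6.66%. At the BR limit, PRAMEF4, MME and ACN9 were inside at 26.2%, 27.7% and 28.7% of naive, and GCNT4, SEMA3A and BAIAP2 outside at 23.2%, 23.1% and 22.3%. The count of members depends on these limits: it was 58 with a naive limit of 2 CPM, 57 with a CR limit of 1/8 and 21 with a CR limit of 1/32.

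The members lie on 14 chromosomes, with 5 on chromosome 1, 4 each on chromosomes 7 and 19 and 3 on chromosome 16. Whether the loss ran on into the genes beside them was read from the nearest tested gene on each side that is not itself a member, by the order of genes in RefSeq. A gene beside 2 members was counted once. Among these 63 neighbours, 33 were lower and 16 higher in CR than naive (52.4% and 25.4%), beside 36.7% and 35.0% of all tested genes. Those lower by 2-fold or more numbered 20 (31.7%, beside 13.4%), and those lower by 16-fold or more numbered 8 (12.7%, beside 5.41%). In BR, set against the same naive libraries, 30 of the 63 were lower (47.6%, beside 41.6%), 16 by 2-fold or more (25.4%, beside 19.4%) and 8 by 16-fold or more (12.7%, beside 9.59%). In CR against BR, 28 were lower (44.4%, beside 37.0%), 15 by 2-fold or more (23.8%, beside 12.4%) and 3 by 16-fold or more (4.76%, beside 2.04%). Among the 40 neighbours with at least 5 CPM in naive cells, 8 were lower by 2-fold or more (20.0%), beside 8.17% of all such genes, and 1 by 16-fold or more (2.50%), beside 2.45%. That gene was PRAMEF2, at 0.0545 CPM in CR, 0.189 CPM in BR and 19.6 CPM in naive cells. Of the nearest 3 tested genes on each side, 181 in all, 99 were lower (54.7%) and 43 higher.

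Several members stood beside genes that kept much or all of their RNA in CR, though some of these genes were lower. IFT172 lies between KRTCAP3, which was lower in CR at 0.467 CPM against 1.11 CPM in naive cells (log2 fold change -1.32, edgeR adjusted p = 0.000881), and ZNF512, which was higher in CR at 74.9 CPM against 42.9 CPM in naive cells (log2 fold change 0.74, adjusted p = 6.28e-08). DIP2C lies between ZMYND11 and LARP4B, which were both higher in CR, at 105 CPM against 74.3 CPM and at 187 CPM against 153 CPM in naive cells. SEPT11 lies between CCNI, at 172 CPM in CR and 141 CPM in naive cells (a call lost without CR replicate 3), and SHROOM3, at 50.5 CPM in CR and 40.2 CPM in naive cells. ACN9 lies between SLC25A13 and ASNS, which were both lower, at 66.6 CPM in CR against 94.5 CPM in naive cells and at 110 CPM in CR against 274 CPM in naive cells (log2 fold changes of -0.57 and -1.38). Next to MYCN, DDX1 was not called, at 316 CPM in CR and 306 CPM in naive cells. FAM49A, on the other side of MYCN, was low in both resistant lines. It averaged 0.0842 CPM in CR, 0 CPM in BR and 0.924 CPM in naive cells (log2 fold change of CR against naive -3.46). In the keratin, PRAME and zinc finger stretches, where relatives of a member lie beside it, several low genes adjoined. Low genes also stood beside other members. FBXO2 beside PTCHD2, FAM163B beside ADAMTSL2 and MYBPH beside CHI3L1 had log2 fold changes of -4.49, -6.88 and -5.50 for CR against naive. FBXO2 and FAM163B had only 1.74 and 0.327 CPM in naive cells and were low in BR too, at 0.121 and 0 CPM.

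**Figure D3:**
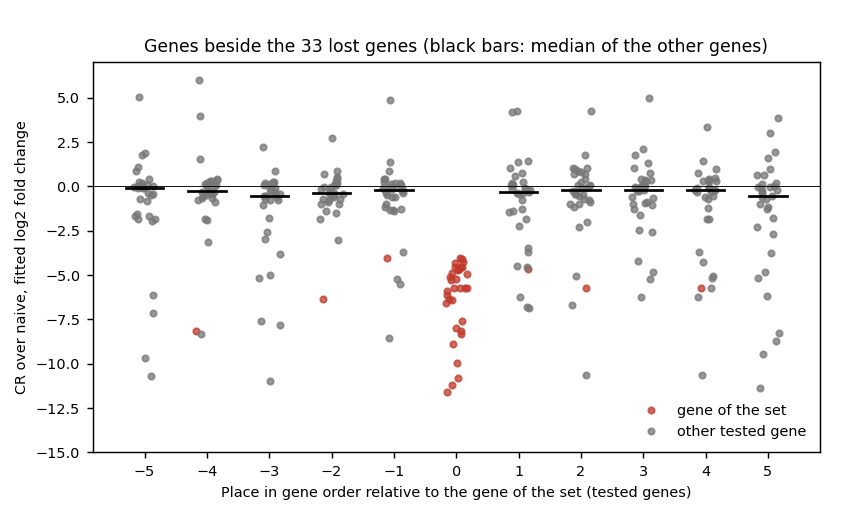
Fitted log2 fold change of CR over naive for the 33 members (place 0) and up to 5 tested genes on each side, with black bars for the median of the other genes at each place; genes with 0 to 3 counts in CR have fitted values that depend on the prior count. The members lie from -11.59 to -4.05, and the medians at the other places lie from -0.55 to -0.11.

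Promoter windows were at hand for 23 of the 33 members and for 7776 of the 9377 genes expressed in naive cells. The CpG ratio sets the CG dinucleotides in the window against the number its C and G content would give, and a value of 0.6 or more is a usual mark of a CpG island. The members' median was 0.607 and that of the expressed genes 0.862. The ratio was 0.6 or more in 12 of 23 members (52.2%), against 87.4% of the expressed genes. The low end held PRAMEF4, CERCAM, C10orf10, TUBB3, CHI3L1 and HDAC9, from 0.207 to 0.311, and the high end held ACN9, PTCHD2, IFT172, DIP2C and GATM, from 1.15 down to 1.02. Members with a ratio of 0.6 or more kept a median of 0.787% of the naive level in CR, and the 11 with a lower ratio kept 2.68%. Of the 7 members with a window that were under 1% of naive in CR, 6 had a ratio of 0.6 or more, beside 87.4% of the expressed genes. LRRN2, at 0.552, did not. The CR level was used by the rule, so these splits are a description and carry no test. These values describe 1 window per gene, and transcription starts in these cells were not measured here.

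**Figure D4:**
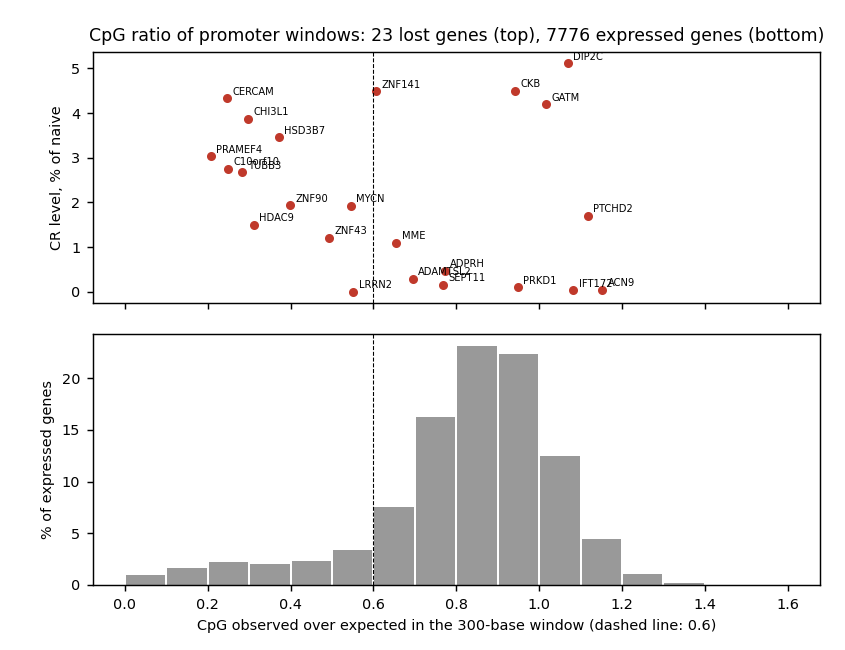
Top, CR level as percent of naive against the CpG ratio of the promoter window for 23 members; bottom, the same ratio over 7776 expressed autosomal genes, as percent of genes per bin of 0.1. Most expressed genes lie right of the dashed line at 0.6, while 11 of the 23 members lie left of it.

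Motifs were searched in the windows on both strands. TATAAA was found in 4 members (17.4%), namely C10orf10, CHI3L1, ADAMTSL2 and CKB, and in 4.69% of the expressed genes. CCAAT was found in 10 members (43.5%) and in 37.8% of the expressed genes, and it stands in the printed windows of GATM, CKB, IFT172, ZNF43 and ZNF90. CACGTG was found in no member and in 10.9% of the expressed genes. These motifs do not overlap each other in letters, and a match or its lack is a description of these windows only.

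The mouse line offers a test that the rule did not use. In 5TGM1, 27 members have a gene of the same symbol, and 13 of these passed the filter on low counts. Of the 13, 10 met the filter level of 0.191 CPM in all libraries of both groups. Among these 10, BR was higher than naive 5TGM1 in 7 and lower in 1 by edgeR's quasi-likelihood test, beside 34.8% higher and 32.6% lower of the 11222 mouse genes that met the level in both groups. A symbol match is not an orthology table. Of the other 14, Mme and Lrrn2 had no count at all, and the rest, among them Peg10, Sgce, Gatm, Ckb, Krt80, Krt86, Prkd1, Fkbp10, Mycn, Adamtsl2 and Mybpc2, had 1 to 33 counts over the 6 libraries, BR and naive together. ZNF43, ZNF506, ZNF90, ZNF141, C10orf10 and PRAMEF4 have no gene of that symbol in the mouse tables.

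Adprh had 245, 240 and 246 CPM in BR and 110, 105 and 107 CPM in naive 5TGM1, a log2 fold change of 1.18 ± 0.04 SE (adjusted p = 1.63e-13). Hdac9 had 30.6, 30.9 and 32.1 CPM in BR and 15.1, 15.9 and 14.1 CPM in naive 5TGM1, a log2 fold change of 1.05 ± 0.05 SE (adjusted p = 3.72e-11). The fitted folds were 2.27 and 2.07, and the groups did not overlap in either gene. Ift172 had 9.58, 9.29 and 9.07 CPM in BR and 6.03, 6.17 and 6.36 CPM in naive 5TGM1, and Acn9 had 7.88, 7.55 and 8.18 CPM in BR and 5.72, 5.13 and 5.31 CPM in naive 5TGM1. Their log2 fold changes were 0.59 and 0.55 (adjusted p = 7.55e-07 and 5.04e-06), and again the groups did not overlap. Ppl was higher by 0.56 (log2 fold change, adjusted p = 0.000295). Sept11 averaged 199 ± 6.02 CPM in BR and 177 ± 13.1 CPM in naive 5TGM1 (SD, n = 3 each), a log2 fold change of 0.17 (adjusted p = 0.00610).

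Chi3l1, the lower counterpart, was scarce in the mouse line. It had 0.469, 0.363 and 0.488 CPM in BR and 1.34, 1.18 and 1.16 CPM in naive 5TGM1 (log2 fold change -1.48, adjusted p = 1.87e-06). Dip2c averaged 0.124 CPM in BR and 0.330 CPM in naive 5TGM1, and Ptchd2 averaged 0.0875 CPM in BR and 0.373 CPM in naive 5TGM1 (log2 fold changes of -1.42 and -2.05). Both passed the filter through the naive libraries alone, so their differences are given as values without a call. Hsd3b7, Tubb3 and Cercam were not called, at log2 fold changes of 0.06, 0.35 and -0.25. Cercam was called lower without BR replicate 3, at -0.34 (adjusted p = 0.0378).

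**Figure D5:**
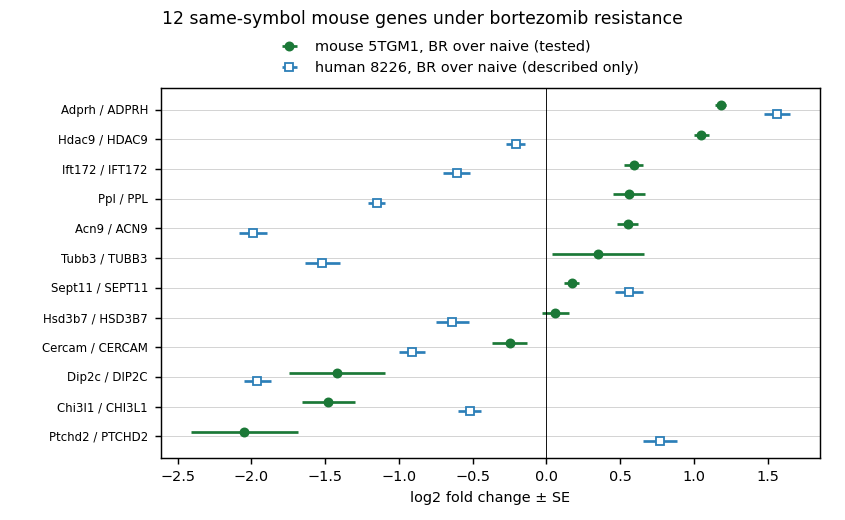
Log2 fold change ± SE of BR over naive for 12 of the 13 tested mouse genes in 5TGM1 (filled circles) and for the same-symbol members in 8226 (open squares, described only), ordered by the mouse value. Mouse values run from -2.05 in Ptchd2 to 1.18 in Adprh, and Hdac9, Ift172, Ppl and Acn9, all higher in mouse BR, lie below 0 in human BR. Ptchd2 and Dip2c passed the filter on low counts through the naive libraries alone, so their values carry no call.

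Markers of the labelled cell type and of others were read beside these results. The plasma cell list was present in all groups, with a summed level of 9486 to 9747 CPM in CR, 7887 to 7987 CPM in BR and 15730 to 17054 CPM in naive cells. In CR 18 of its 20 tested genes were lower than naive and 2 higher, beside 36.7% and 35.0% of all tested genes, with SDC1 at 153 CPM in CR and 289 CPM in naive cells and CD38 at 234 CPM in CR and 82.6 CPM in naive cells. Macrophage markers summed to 190 to 203 CPM in CR, 64.6 to 69.1 CPM in BR and 57.2 to 61.5 CPM in naive cells, and T and NK cell markers to 152 to 171 CPM in CR, 173 to 192 CPM in BR and 242 to 266 CPM in naive cells. Fibroblast markers summed to 7522 to 8770 CPM in CR, 2776 to 3146 CPM in BR and 7090 to 8228 CPM in naive cells. Of 9 macrophage markers tested, 4 were higher and 5 lower in CR than naive, beside 35.0% and 36.7% of all tested genes. Of 9 T and NK cell markers 2 were higher and 6 lower, and of 7 fibroblast markers 2 were higher and 3 lower. Single markers named below do not stand for these lists. The defining markers CD163, CD3D, COL3A1 and DCN were at or near 0 in all groups. Others were low in naive cells and lower in CR: MRC1, of macrophages, averaged 0 CPM in CR, 0.0098 CPM in BR and 2.20 CPM in naive cells. CD3E, of T cells, averaged 0.395 CPM in CR, 0.0299 CPM in BR and 1.34 CPM in naive cells, and COL1A1, of fibroblasts, averaged 0.135 CPM in CR, 1.23 CPM in BR and 1.38 CPM in naive cells. The part of these differences in the levels of the 33 genes was not tested.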

How the data were processed

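The authors deposited raw whole-number counts of reads for each gene in each library. Per the submitters' processing notes STAR was used, with no version given. The builds hg19, GRCh37, mm10 and GRCm38 are listed there with no file named, so RefSeq GRCh38.p14 coordinates were used only for gene order and for the promoter windows. The authors' column 4 counts were used, since column 3 held 1.43% to 1.64% of stranded gene reads in 8226. The first 4 rows, totals of unmapped reads, reads that fit several places, reads in no gene and ambiguous reads, were left out. Reads that fit several places (8.95% to 10.9% in 8226) were not counted per gene. CPM were counts over the column sum. Log2 fold changes, SEs and adjusted p-values came from edgeR 4.0.16 in R 4.3.3 (TMM, filterByExpr, quasi-likelihood F test, Benjamini-Hochberg over all tested genes, called below 0.05), with all 9 human libraries in 1 fit and the 6 mouse libraries in another, and the code was tested on simulated counts. Groups and replicate numbers came from the sample titles. A gene was matched to RefSeq by symbol or synonym (21995 of 23346). Members, gene lists and partner lists were chosen with earlier results of these data known, so human contrasts of members carry no test. Counts cover all 33 members, of which 2 are not reported here by name. Values per library are given for the other members among the 12 highest in naive cells, for those with no CR count and for those called in mouse, and for KRT86 and PRKD1, chosen after their values were seen; other members are given by means, and other genes are neighbours of members or genes of the lists, some chosen after their values were seen. Alternatives were RLE factors, library size alone, no filter, DESeq2 1.42.0, unstranded counts (column 2), a replicate block, other limits and each library left out.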

Additional observations from a re-analysis of the deposited data

Results flagged for a closer look

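In 3 genes every BR library lay above every naive library in mouse 5TGM1 and below every naive library in human 8226. The log2 fold change of BR against naive was 0.56 for Ppl in 5TGM1 and -1.15 for PPL in 8226, 0.55 for Acn9 and -1.99 for ACN9, and 0.59 for Ift172 and -0.61 for IFT172. Ptchd2 showed the opposite, with -2.05 in 5TGM1, where it passed the filter on low counts through the naive libraries alone, and 0.77 for PTCHD2 in 8226. The differences between the lines were not tested.

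On the strand opposite to SEPT11, a column that enters only the alternative with unstranded counts, the 3 CR libraries held 27 counts (5, 9 and 13) and the 3 naive libraries 5 (1, 2 and 2), and scaled to gene reads every CR library was above every naive library. The BR libraries held 6, 2 and 4 counts and overlapped CR. The counts are few, and the kind of read behind them was not tested.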

How the results depend on the processing

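The number of members was 58 with a naive limit of 2 CPM, 57 with a CR limit of 1/8 and 21 with a CR limit of 1/32. It was 34 on TMM-scaled CPM, where MME and PRAMEF4 left and KRT81, NFATC1 and ZNF570 came in, 34 with unstranded counts, and 31 to 35 with a library left out. Leaving out a library gave 9451 to 10117 genes called for CR against naive, 10239 to 11045 for CR against BR, 10780 to 11195 for BR against naive, 7408 to 8146 for BR against naive in 5TGM1, and 31 to 35 lower neighbours. Same-numbered libraries showed no regular shared deviation (correlations from -0.510 to 0.521, with no comparison above 0.1 in all its pairs). The main fit used no pairing, but so few pairs cannot show that the numbers mark no shared batch. With the replicate block the counts were 9986, 10709, 11094 and 7716 called genes and 32 lower neighbours. RBBP7 in BR against naive had a log2 fold change of 0.03 with library size alone, against -0.16. Of the members' fitted log2 fold changes 12 alternative values moved by more than the spread, among them LRRN2, IFT172 and SEPT11 with unstranded counts (-7.77, -6.69 and -5.32), where reads of the opposite strand enter by construction. Depth limits the lowest members: with 0 to 3 counts in CR the size of a fold is known only within its counting interval.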

Other observations

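Genes of DNA methylation and Polycomb repression showed no common direction in CR. Of 46 tested, 19 were higher and 15 lower than naive, beside 35.0% and 36.7% of all tested genes. PCGF3, a Polycomb ring finger gene, was higher at 34.4 CPM in CR and 11.4 CPM in naive cells (log2 fold change 1.54, edgeR adjusted p = 6.80e-12), and RBBP7, a histone-binding subunit, was lower at 257 CPM in CR and 511 CPM in naive cells (-1.06, adjusted p = 9.24e-11). DNMT1, the maintenance methyltransferase, was not called, at 364 CPM in CR and 339 CPM in naive cells. TET1, which oxidises methylated cytosine and was chosen after its values were seen, had a pattern like that of the set, with 0.446 CPM in CR, 11.6 CPM in BR and 2.79 CPM in naive cells. Its log2 fold change was -2.68 for CR (adjusted p = 1.60e-09) and 1.87 for BR against naive, and both its naive level, under 5 CPM, and its CR level, above 1/16 of naive, kept it out of the set.

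Some genes beside members gained RNA in CR, and these too were chosen after their values were seen. STXBP6, next to PRKD1, averaged 12.1 CPM in CR, 0.0389 CPM in BR and 0.390 CPM in naive cells. PLCH1, next to MME, averaged 4.70 CPM in CR, 3.18 CPM in BR and 0.242 CPM in naive cells.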
